A study of Mus musculus with 3 samples.

Results

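The genes of 4 chemokines and of their receptors were followed in immune cells of mouse melanoma grafts: the ligand genes Cxcl9, Cxcl10, Cxcl11 and Cxcl16 and the receptor genes Cxcr3 and Cxcr6. They were chosen by symbol, and all 6 were found once among the 55401 genes listed in each of the 3 deposited count matrices. The grafts were grown from YUMM1.7, a transplantable melanoma line from a genetically engineered mouse. All mice received 500000 of these cells under the skin and were killed 18 days later, at an age of 4, 12 or 20 months, with 7 mice per age. Live leukocytes, negative for DAPI and positive for the leukocyte protein CD45 with an antibody to its CD45.2 form, were sorted from the digested tumours and made into 1 library of 3′ single-cell RNA sequencing per age. The labels give no strain or sex, and do not say whether the 7 mice were pooled. A difference between ages is therefore a difference between 3 libraries, with no replicate and no test.

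Cxcl9, Cxcl10 and Cxcl11 encode small secreted chemokines that interferons induce, and all of them bind Cxcr3, a receptor of activated T cells and NK cells. In tumours this axis is known for drawing effector T cells in and for holding them near dendritic cells. Cxcl16 encodes a chemokine made as a membrane protein, which the proteases Adam10 and Adam17 release, and its receptor Cxcr6 marks tissue-resident and exhausted T cells. Dpp4, a surface peptidase, trims the ligands of Cxcr3 at their amino terminus.

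The genes of the Cxcr3 ligands lie side by side. On GRCm38, in GENCODE M21, Cxcl9 (ENSMUSG00000029417.9) spans chr5:92321347-92328079, Cxcl10 (ENSMUSG00000034855.13) spans chr5:92346638-92348889 and Cxcl11 (ENSMUSG00000060183.6) spans chr5:92359544-92365485. All are on the minus strand, within 44139 bases. Cxcl16 (ENSMUSG00000018920.11) lies at chr11:70453983-70459984 and Cxcr3 (ENSMUSG00000050232.6) at chrX:101731535-101734269, both on the minus strand. Cxcr6 (ENSMUSG00000048521.8) lies at chr9:123806475-123811760 on the plus strand. Cxcl11 is annotated as a polymorphic pseudogene in this reference, which was made from C57BL/6J mice. That label is given to a gene that is disrupted in the reference strain and intact in some other strains. The Cxcl11 counts are RNA counts and do not tell whether protein was made.

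Each of 4 members overlaps a gene on the opposite strand, and whether counting used the strand is not given in the sources used here. Art3 contains Cxcl10 and Cxcl11 and shares 133 exon bases with Cxcl10 and none with Cxcl11. The pseudogene Gm2673 shares 1582 exon bases with Cxcl11. Zmynd15 shares 552 exon bases with Cxcl16, and Fyco1 contains Cxcr6 without shared exon bases. Without strand, reads that fall in shared exon bases cannot be told apart between these genes and their partners. CPM is a gene's share of all counts summed over the cells of a class in 1 library, times 1000000. In this measure Zmynd15 had 888, 706 and 794 CPM in mature dendritic cell-like cells and 76.0, 92.7 and 103 in macrophage-like cells at 4, 12 and 20 months, so it was highest in the same class as Cxcl16.

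The start regions of Cxcl9 and Cxcl10 are shown because both are known interferon targets. Each line gives the 250 bases before the gene's start on the minus strand, from RefSeq on GRCm38.p6, 5′ to 3′, with the matches to the motifs below in capitals. The Cxcl9 stretch is chr5:92328080-92328329 and the Cxcl10 stretch is chr5:92348890-92349139.
Cxcl9: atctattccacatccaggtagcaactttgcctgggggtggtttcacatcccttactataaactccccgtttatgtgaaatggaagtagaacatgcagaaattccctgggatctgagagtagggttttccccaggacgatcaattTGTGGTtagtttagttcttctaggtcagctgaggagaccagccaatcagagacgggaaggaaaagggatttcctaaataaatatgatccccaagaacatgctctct
Cxcl10: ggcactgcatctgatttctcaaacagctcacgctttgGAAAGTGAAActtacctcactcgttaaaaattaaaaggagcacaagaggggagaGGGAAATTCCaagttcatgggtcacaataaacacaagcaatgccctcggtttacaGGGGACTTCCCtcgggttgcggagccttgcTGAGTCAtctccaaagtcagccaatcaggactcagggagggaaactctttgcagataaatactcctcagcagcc
The motifs searched, on both strands, were the interferon-stimulated response element (GAAA, any 2 bases, GAAA), the interferon-gamma activated site TTCNNNGAA, the NF-kappaB motif, the AP-1 motif TGANTCA, the T-box motif GGTGTGA and the RUNX motif TGTGGT. Cxcl10 held the response element GAAAGTGAAA at 213 to 204 bases before its start. It also held NF-kappaB matches at 159 to 150 and, overlapping each other, at 104 to 94, and the AP-1 match TGAGTCA at 74 to 68. Cxcl9 held only the RUNX match, at 106 to 101. Of 32841 promoters of the same length, 2.98% held the response element, 7.02% the activated site, 7.25% an NF-kappaB match, 6.75% an AP-1 match, 3.33% a T-box match and 14.0% a RUNX match. The RefSeq table matched 4 of the 6 members. Cxcl11 and Cxcl16 had no entry. A match is a run of letters and not a measured site. Only exact matches within the 250 bases were searched, so sites further away or with other letters would be missed. Whether these sequences bear on the levels below was not tested.

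The libraries held 14393 to 14684 cells with 110371225 to 127850782 counts in all, and median counts per cell were 6789, 7411 and 6936 at 4, 12 and 20 months. Removing likely doublets left 13528, 13774 and 13803 cells, which were clustered without the 6 genes and named from marker lists. Of 36 clusters, 9 had leading genes that went against their best name, or too low a score, and stayed unnamed. Ptprc, the gene of CD45, was seen in 94.1 to 95.3% of cells, and the summed level of 7 melanoma markers was 18.2 to 21.8 CPM, although the labels' cell type field reads Melanoma. The macrophage marker C1qa was at 2546 to 6138 CPM in the 3 large macrophage-like clusters and at 187 to 229 in the large NK-like and CD8 T-like clusters. A level of a member in a class that should lack it is therefore given beside each level below. Brackets hold exact 95% intervals, Poisson for a level and binomial for a share or a ratio, and these cover counting error only, not differences between mice. An interval of a level or a ratio takes counts as independent, so it leaves out the spread between cells too.

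The sources of the ligands come first. Cxcl9 was highest in type 1 dendritic cell-like cells, the class that takes up dead tumour cells and presents their antigens to CD8 T cells. Its level there was 328 (292 to 367), 358 (323 to 395) and 277 (251 to 305) CPM at 4, 12 and 20 months. Macrophage-like cells had 324 (315 to 332), 279 (271 to 287) and 234 (228 to 239.8) CPM. At 4 months these levels could not be ordered, with a log2 ratio of 0.019 (−0.15 to 0.19). At 12 and 20 months type 1 dendritic cell-like cells had the higher level by the counting interval, which leaves out the spread between cells. The shares of cells with a count, given below, did not separate these classes. Type 2 dendritic cell-like cells (244, 149.6 and 191 CPM) and monocyte-like cells (228, 184 and 172 CPM) followed, with the first above the second at 4 and 20 months and below it at 12 months. Mature dendritic cell-like cells, which have left their resting state and express Ccr7 and Il12b, were low at 53.2, 83.0 and 68.4 CPM. CD8 T-like cells, which are not known as a source, held 19.0, 17.1 and 17.1 CPM.

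Few cells carried most of the Cxcl9 RNA. In macrophage-like cells the 5% of cells with the most counts of the gene held 66.9, 60.9 and 65.9% of its counts at 4, 12 and 20 months, and single cells reached 169, 88 and 123 counts. After each cell was thinned to 2000 counts, 17.7% (16.0 to 19.5), 19.9% (18.1 to 21.9) and 16.9% (15.6 to 18.4) of macrophage-like cells had a Cxcl9 count, against 3.53, 3.51 and 3.63% of CD8 T-like cells. For type 1 dendritic cell-like cells the thinned shares were 17.8% (10.5 to 27.3), 22.8% (14.7 to 32.8) and 20.6% (14.6 to 27.9). Unthinned they were 46.7, 42.4 and 36.1%, at median depths of 9221 to 11218 counts. Each thinned interval held the macrophage-like share of the same library. Before thinning, the median macrophage-like cell held 8280, 9186 and 8289 counts and the median CD8 T-like cell 5166, 5904 and 5710 counts, and no cell was too shallow to be thinned. Unthinned, the shares were 36.6, 41.3 and 33.7% of macrophage-like and 11.3, 11.6 and 10.7% of CD8 T-like cells. The share of macrophage-like cells thinned to 2000 counts was highest at 12 months while the level was highest at 4 months. Thinned to 1000 counts, the share was highest at 4 months, so no order of ages is read from the shares. Among clusters, Cxcl9 ranged from 114, 74.3 and 67.2 CPM in monocyte-like cells led by F13a1, Hp and Fn1 to 515, 432 and 423 CPM in macrophage-like cells led by Cfb, Slamf9 and Ccl12. Monocyte-like cells led by AA467197, Tgm2 and Chil3 had 426, 318 and 258 CPM and those led by Thbs1 and Tgm2 205, 210.5 and 241 CPM.

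Cxcl10 had another order of sources. Monocyte-like cells led in every library, with 3197 (3171 to 3223), 2592 (2561 to 2623) and 2463 (2434 to 2493) CPM at 4, 12 and 20 months. The next class was type 2 dendritic cell-like cells at 4 and 12 months (1060.3, 886 and 662 CPM over the 3 ages) and macrophage-like cells at 20 months (860.0, 769 and 855 CPM). Type 1 dendritic cell-like cells, first for Cxcl9, had only 356, 199 and 174 CPM. Per 100 counts of Cxcl10, Cxcl9 gave 92.0, 180 and 159 counts in type 1 dendritic cell-like cells, 37.6, 36.2 and 27.4 in macrophage-like cells and 7.12, 7.09 and 6.97 in monocyte-like cells, a ratio used here only to compare classes. At 12 and 20 months the Cxcl10 level of type 1 dendritic cell-like cells lay below the 291 and 320 CPM of CD8 T-like cells. How much of that level is free RNA was not tested, so the size of the ratio in that class is not read. Every monocyte-like cluster was high, at 3639, 2663 and 2644 CPM in that led by F13a1, 3111, 2972 and 2745 in that led by Thbs1 and 2547, 2182 and 2105 in that led by AA467197. Macrophage-like clusters differed more, from 298, 285 and 307 CPM in that led by the class II genes H2-Ab1, H2-Aa and H2-Eb1, through 625, 616 and 704 in that led by Pf4, Cd81 and Ms4a7, to 1482, 1684 and 2093 in that led by Cfb. The intervals of these 3 clusters did not overlap in any library.

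**Figure D1:**
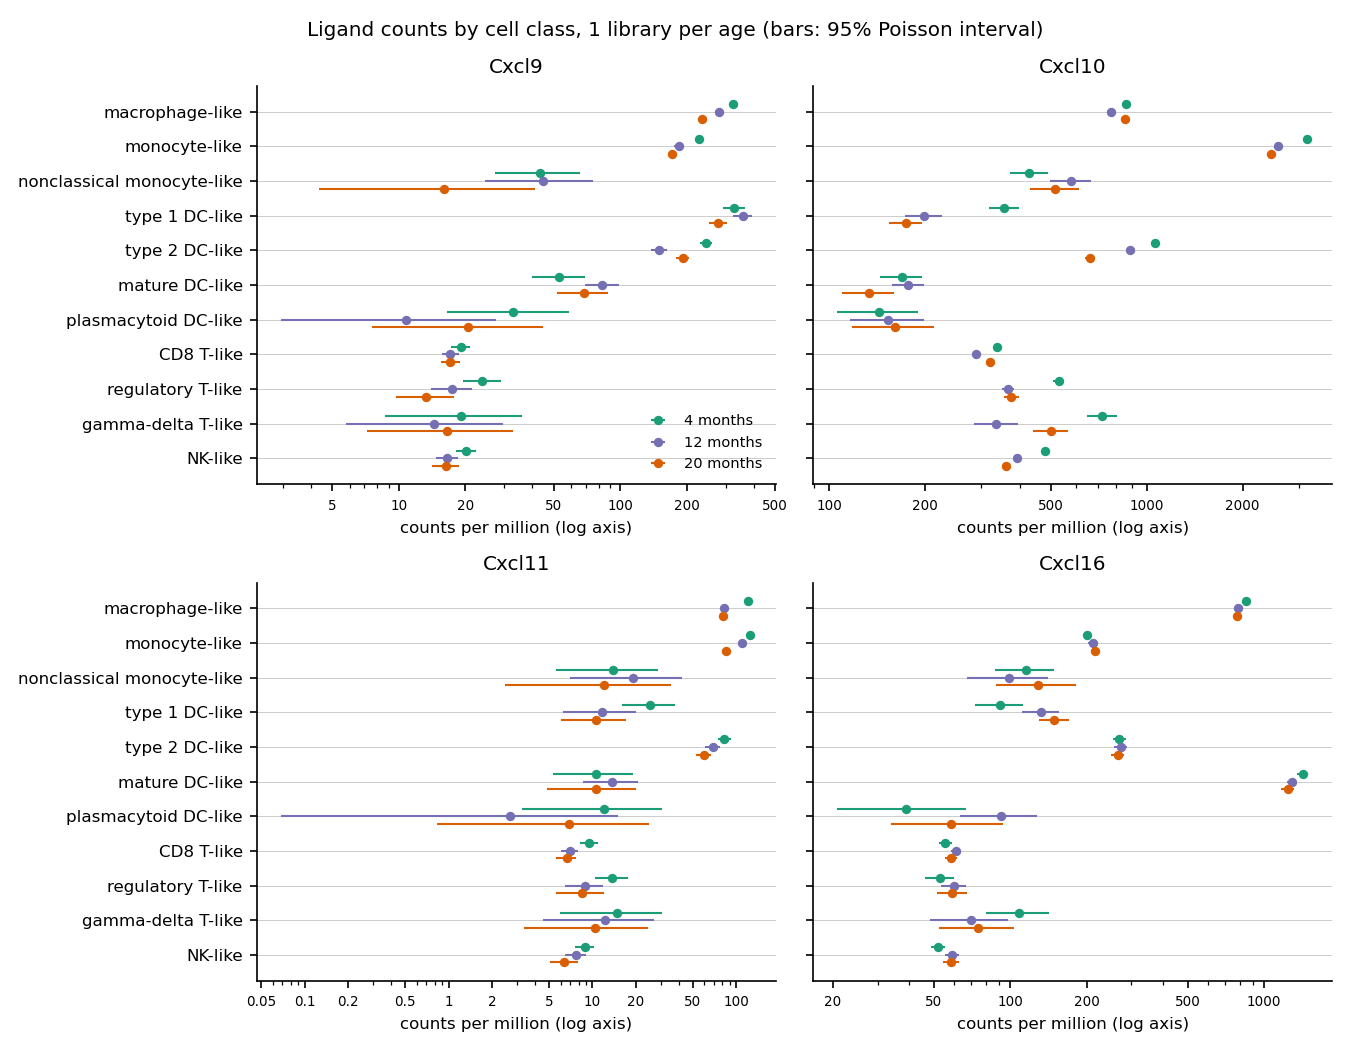
Levels of the 4 ligand genes (CPM, log axis) in 11 named cell classes, with 1 point per library of 4, 12 and 20 months and bars for the 95% Poisson interval. Cxcl9 is highest in type 1 dendritic cell-like and macrophage-like cells, Cxcl10 in monocyte-like cells and Cxcl16 in mature dendritic cell-like cells, in all 3 libraries.

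Cxcl10 counts were also seen in lymphocytes, at 338, 291 and 320.2 CPM in CD8 T-like, 478, 391 and 362 in NK-like, 528, 366 and 375 in regulatory T-like and 722, 336 and 499.5 in gamma-delta T-like cells. The thinned share of cells with a count was 76.9, 69.0 and 67.1% of monocyte-like, 53.5, 48.3 and 48.3% of macrophage-like and 37.1, 31.3 and 32.1% of CD8 T-like cells. Median depths were 7220 to 7889 counts in monocyte-like, 8280 to 9186 in macrophage-like and 5166 to 5904 in CD8 T-like cells over the 3 libraries. Unthinned, the shares were 92.8, 89.5 and 86.0% of monocyte-like, 87.2, 85.7 and 81% of macrophage-like and 68.8, 66.7 and 64.6% of CD8 T-like cells. Against 100 summed counts of the monocyte genes F13a1, Fn1, Chil3, Thbs1, Vcan and Lyz2, Cxcl10 gave 14.5, 12.5 and 11.9 counts in monocyte-like cells at 4, 12 and 20 months. The same ratio was 45.6, 48.2 and 51.6 in CD8 T-like, 70.4, 61.2 and 58.4 in regulatory T-like and 66.3, 65.7 and 60.7 in NK-like cells. The ratio differed between lymphocyte classes of the same library and lay above that of monocyte-like cells in each. In macrophage-like cells it was 27.0, 21.3 and 21.5. How much Cxcl10 lymphocytes made themselves was not tested.

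Cxcl11, whose protein, where made, binds Cxcr3 with the highest affinity of the 3 ligands, was found in the same classes at lower counts. Monocyte-like cells had 124 (119 to 129), 109.7 (103 to 116) and 84.5 (79.2 to 90.1) CPM and macrophage-like cells 120.2 (115 to 126), 81.9 (77.8 to 86.3) and 81.2 (77.8 to 84.7) CPM. These classes could be ordered at 12 months only, since the interval of their ratio included 0 at 4 and 20 months. Type 2 dendritic cell-like cells followed with 82.6, 68.4 and 59.3 CPM. Type 1 dendritic cell-like cells had 25.1, 11.7 and 10.5 CPM from 23, 13 and 16 counts, against 9.44, 6.92 and 6.60 CPM in CD8 T-like cells. The macrophage-like cluster led by Cfb was highest, at 227, 197 and 251 CPM, and those led by Pf4 (51.1, 48.4 and 42.8 CPM) and H2-Ab1 (49.5, 38.1 and 34.3 CPM) were lowest among macrophage-like cells. In the Cfb cluster 28.1, 24.3 and 30.5% of thinned cells had a Cxcl11 count, against 2.04, 1.55 and 1.29% of CD8 T-like cells, at median depths of 7738 to 8326 and 5166 to 5904 counts. Unthinned, the shares were 52.0, 54.2 and 52.7% in that cluster and 5.99, 5.09 and 4.41% in CD8 T-like cells.

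Cxcl16, the ligand of Cxcr6, was divided among classes in a way of its own. Mature dendritic cell-like cells were highest, at 1419.7 (1348 to 1494), 1289 (1234 to 1346) and 1239 (1165 to 1316) CPM. Macrophage-like cells came next with 852 (838 to 866), 786 (773 to 799) and 783 (773 to 794) CPM, then type 2 dendritic cell-like (268, 272 and 265 CPM), monocyte-like (201, 212 and 216 CPM) and type 1 dendritic cell-like cells (90.7, 132 and 149 CPM). The first 4 classes stood in this order in every library, and the interval of each step's ratio excluded 0. CD8 T-like cells had 55.4, 61.1 and 58.4 CPM. Thinned shares with a count were 90.4, 85.8 and 88.2% of mature dendritic cell-like, 76.5, 75.8 and 74.5% of macrophage-like and 10.7, 11.7 and 12.1% of CD8 T-like cells, at median depths of 6632 to 8540, 8280 to 9186 and 5166 to 5904 counts. Without thinning they were 99.3, 99.4 and 99.0%, then 96.6, 97.9 and 97.3%, and 28.7, 34.9 and 32.9% for the same 3 classes.

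Macrophage-like clusters that differed widely in Cxcl10 were close in Cxcl16. It was at 795, 757 and 712 CPM in the Cfb cluster, 889, 816 and 842 in the H2-Ab1 cluster and 890.4, 781 and 777 in the Pf4 cluster at 4, 12 and 20 months. An unnamed cluster led by Il1b, Cxcl2, Atf3, Cd14 and Fos, whose best marker score was that of macrophages, had 936, 812 and 811 CPM. Monocyte-like cells ran from 77.2, 85.9 and 105 CPM in the F13a1 cluster to 327, 331 and 317 in the AA467197 cluster. The F13a1 cluster, highest of the 7 for Cxcl10 at 4 months, was thus lowest for both Cxcl9 and Cxcl16 in every library.

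**Figure D2:**
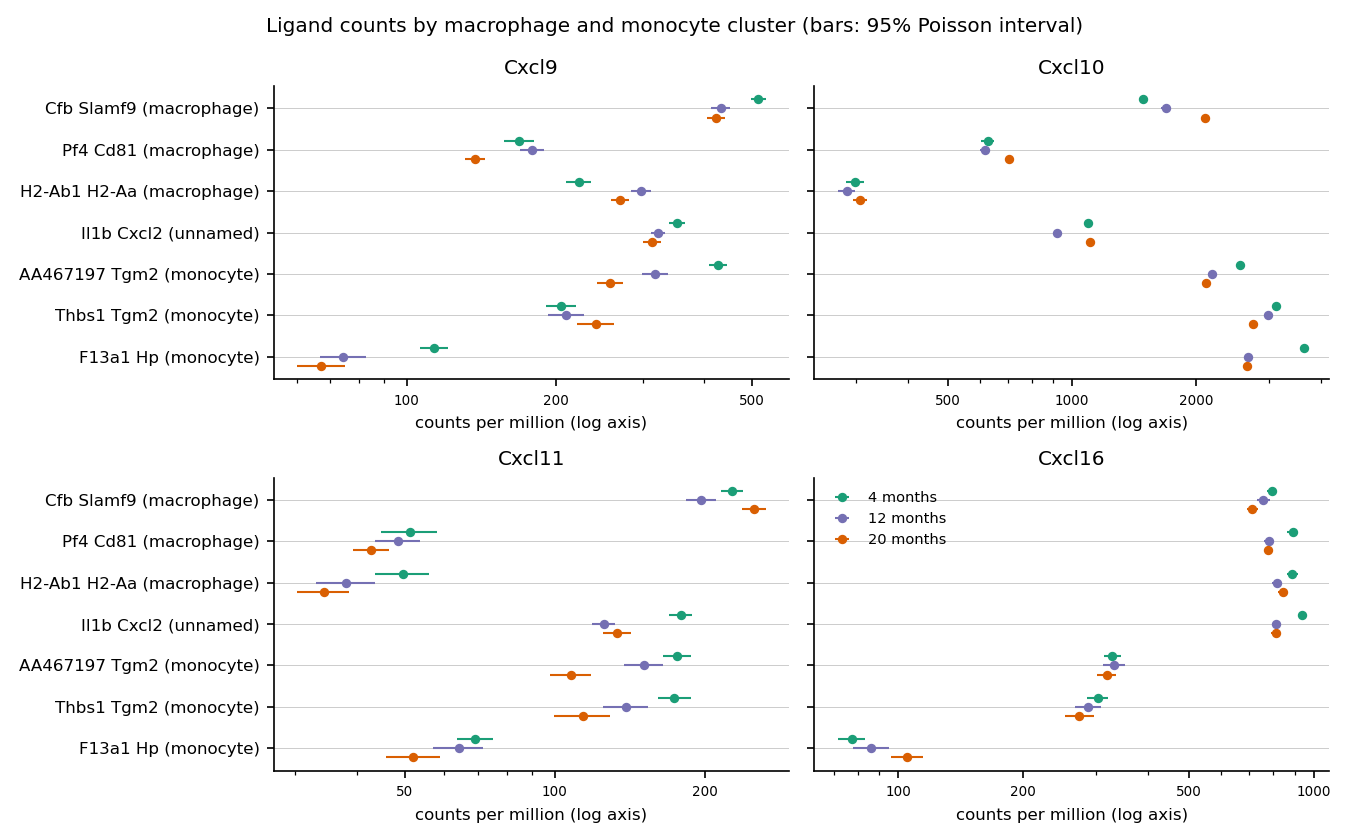
Levels of the ligand genes (CPM, log axis) in 7 macrophage-like, monocyte-like and unnamed clusters, each called by its leading genes, with 1 point per library and bars for the 95% Poisson interval. Cxcl16 lies between 712 and 936 CPM in the macrophage-like and unnamed clusters, while Cxcl10 runs from 285 to 2093 in the macrophage-like ones.

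The share of each ligand's counts that a class supplied followed its cell number as well as its level. Macrophage-like cells were 13.9, 12.6 and 20.3% and monocyte-like cells 17.6, 9.30 and 10.5% of cells at 4, 12 and 20 months. Macrophage-like cells supplied 36.6, 38.2 and 48.6% of Cxcl9 counts, 13.2, 17.0 and 27.8% of Cxcl10, 30.7, 29.6 and 44.8% of Cxcl11 and 46.2, 41.8 and 58.6% of Cxcl16. Monocyte-like cells supplied 27.6, 14.9 and 14.997% of Cxcl9 counts, 52.6, 33.8 and 33.6% of Cxcl10, 33.8, 23.4 and 19.6% of Cxcl11 and 11.6, 6.66 and 6.80% of Cxcl16. For all 4 ligands the macrophage-like share was highest at 20 months, although the level of none of them in that class was higher at 20 than at 4 months. Monocyte-like cells had their highest share at 4 months for each. The unnamed Il1b cluster supplied 18.6, 28.7 and 18.1% of Cxcl9 and 23.6, 28.0 and 16.9% of Cxcl16. Mature dendritic cell-like cells, with the highest Cxcl16 level, gave 4.80, 6.22 and 2.97% of its counts from 136, 169 and 102 cells.

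**Figure D3:**
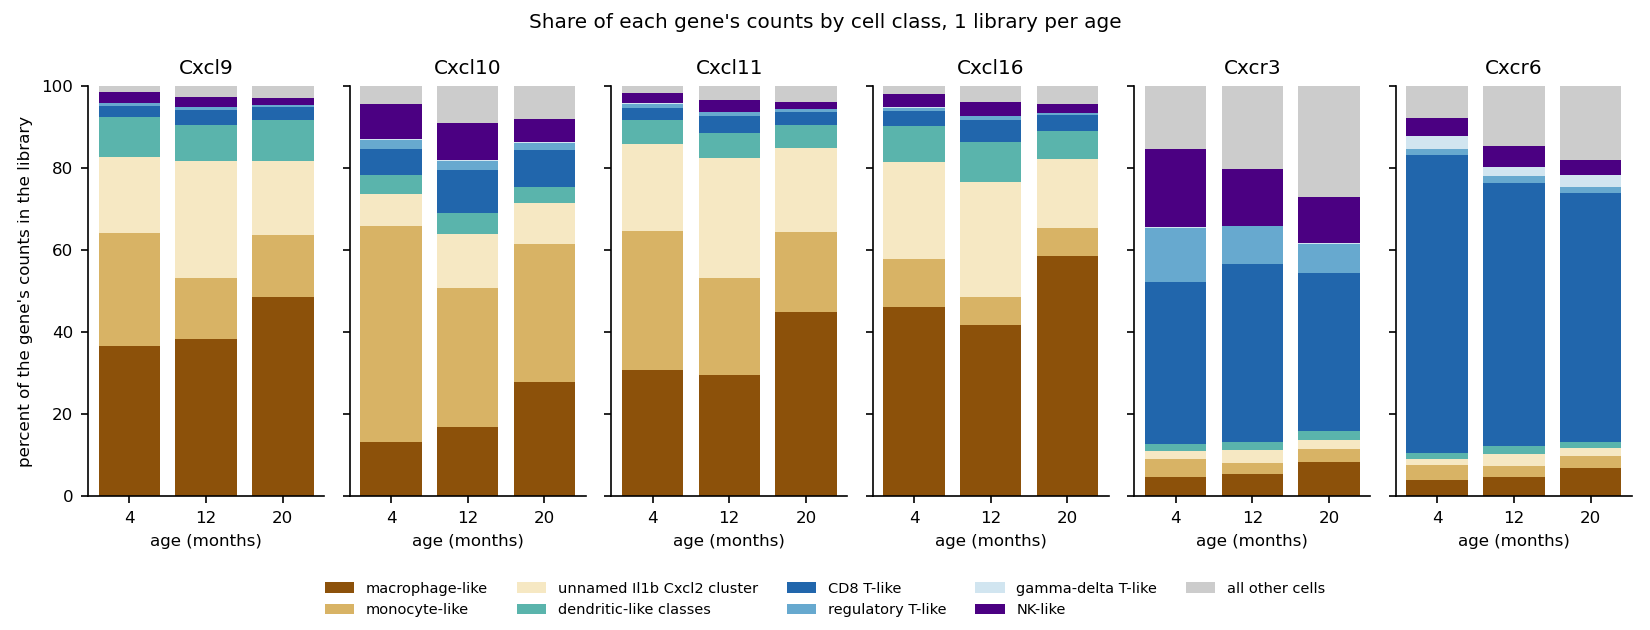
Share of each gene's counts (percent) by cell class, with 1 bar per library of 4, 12 and 20 months. Macrophage-like cells give 48.6% of Cxcl9 and 58.6% of Cxcl16 counts at 20 months, monocyte-like cells give 52.6% of Cxcl10 counts at 4 months, and CD8 T-like cells give 60.7 to 72.7% of Cxcr6 counts.

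In macrophage-like, monocyte-like and type 2 dendritic cell-like cells, Cxcl11 was found together with Cxcl9 or Cxcl10 more often than their separate shares would give. Type 1 dendritic cell-like cells, with at most 3 such cells per library, did not show this at 20 months. Among thinned macrophage-like cells 4.80, 3.41 and 4.11% had counts of both Cxcl9 and Cxcl11, against 2.94, 2.35 and 2.04% if they were independent. For Cxcl10 and Cxcl11 the share was 12, 9.24 and 9.46%, against 8.87, 5.69 and 5.83%. Monocyte-like cells had 3.90, 3.36 and 2.75% for Cxcl9 and Cxcl11, against 1.90, 1.77 and 1.24%. Cxcl9 and Cxcl10 were nearer to independence in macrophage-like cells, with 10.5, 10.6 and 9.50% against 9.47, 9.61 and 8.18%. So were Cxcl9 and Cxcl16, with 14.3, 15.9 and 13.2% against 13.5, 15.1 and 12.6%. In monocyte-like cells, however, Cxcl9 and Cxcl16 occurred together in 5.32, 5.31 and 5.57% against 3.47, 4.06 and 3.39%, and in type 2 dendritic cell-like cells in 6.90, 6.85 and 5.12% against 4.39, 4.97 and 3.92%. These shares describe cells of 1 library each, which include clusters of different levels.

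Turning to the receivers, Cxcr3 was highest in regulatory T-like cells, which restrain other T cells and are marked by Foxp3, at 486 (465 to 507), 460.1 (441 to 479) and 446 (424 to 468) CPM. CD8 T-like cells had 314 (307 to 322), 377 (370.4 to 385) and 356 (348 to 363) CPM and NK-like cells 158 (153 to 164), 187 (181 to 193) and 185 (178 to 193) CPM. This order held in every library, and each step's interval excluded 0. Gamma-delta T-like cells, led by Trgc1, Cd163l1 and Il17a, had 73.9, 105 and 114 CPM from 64, 76 and 81 cells. Plasmacytoid dendritic cell-like cells, which make type I interferon, had 108, 102 and 127 CPM. Macrophage-like cells, not known for this receptor, had 45.4, 77.4 and 67.9 CPM, which sets the background and was itself lowest in the 4-month library. No cluster was named CD4 T-like. A cluster with both Cd4 and Cd8a counts, led by Ccl1, Penk and Ifng, stayed unnamed and had 175, 225 and 178 CPM of Cxcr3.

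Thinned shares of cells with a Cxcr3 count were 59.5, 59.3 and 58.1% of regulatory T-like, 46.7, 52.8 and 50.9% of CD8 T-like, 26.4, 32.2 and 30.4% of NK-like and 8.69, 15.4 and 12.6% of macrophage-like cells. Median depths were 4932 to 6272, 5166 to 5904, 7046 to 7836 and 8280 to 9186 counts in these classes. The unthinned shares were 83.7, 88.0 and 87.9% of regulatory T-like, 76.5, 86.4 and 83.7% of CD8 T-like, 64.4, 73.9 and 68.6% of NK-like and 31.0, 49.9 and 43.7% of macrophage-like cells. Shares in these 3 lymphocyte classes were above that of macrophage-like cells at each age, before and after thinning. In gamma-delta T-like cells they were 10.9, 18.4 and 14.8% thinned and 26.6, 44.7 and 39.5% unthinned, the latter below macrophage-like cells at each age.

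Cxcr6 was highest in gamma-delta T-like cells, at 1444 (1338 to 1557), 1675 (1562 to 1794) and 1469.5 (1363 to 1582) CPM. CD8 T-like cells followed with 795 (783 to 807), 779.5 (769 to 789.8) and 654 (644 to 665) CPM. NK-like cells (50.2, 97.4 and 73.5 CPM) were close to macrophage-like cells (50.3, 91.7 and 64.7 CPM). Regulatory T-like cells had 67.5 (60.1 to 75.7), 111 (102 to 121) and 102 (91.5 to 113) CPM, above macrophage-like cells in each library and by most at 20 months. Thinned shares were 89.1, 92.1 and 88.9% of gamma-delta T-like, 72.7, 72.8 and 66.1% of CD8 T-like, 12.2, 18.4 and 18.0% of regulatory T-like, 8.45, 18.3 and 12.8% of NK-like and 9.92, 16.6 and 11.4% of macrophage-like cells, the first at a median depth of 5539 to 6002 counts and the others as given for Cxcr3. Unthinned, they were 98.4, 98.7 and 97.5% of gamma-delta T-like, 92.1, 94.7 and 91.1% of CD8 T-like, 27.0, 47.9 and 43.8% of regulatory T-like, 30.8, 54.3 and 40.2% of NK-like and 34.4, 55.5 and 43.6% of macrophage-like cells. The NK-like level differed little from that of macrophage-like cells in each library, so it is not read as a level particular to NK-like cells. How much of it is free RNA was not tested. Regulatory T-like, NK-like and macrophage-like cells all had a higher Cxcr6 level at 12 than at 4 months. Fyco1, the gene that contains Cxcr6 on the other strand, had 34.7, 64.9 and 51.3 CPM in NK-like and 46.0, 77.0 and 60.7 CPM in macrophage-like cells, lowest at 4 months as well.

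CD8 T-like clusters differed in both receptors, in different orders at 4 and 20 months. At 12 months the clusters led by Pdcd1 and by Ifitm1 were nearly equal in Cxcr6, so no shared order of the receptors is read there. The cluster led by Pdcd1, Trgc2, Rgs16, Tox and Ccl3, genes of which Pdcd1 and Tox are known from exhausted T cells, had a low Cxcr3 level of 173, 235 and 289 CPM and a high Cxcr6 level of 927, 857 and 717 CPM. The cluster led by Ifitm1 and Cd8b1 had 455, 487 and 438 CPM of Cxcr3 and 794, 863 and 667 CPM of Cxcr6. That led by Snord118 and Cd8b1 was highest of the 4 in Cxcr3, at 512, 598 and 505 CPM, with 965, 1088 and 865 CPM of Cxcr6. Dividing cells, led by histone genes and Birc5, were low in both, at 153, 222 and 259 CPM of Cxcr3 and 478, 429.8 and 424 CPM of Cxcr6. Unnamed T cell clusters with genes of resting cells among their leaders had a moderate level of Cxcr3 and little Cxcr6. That led by Dapl1 and Ccr7 had 350.4, 293 and 244 CPM of Cxcr3 and 168, 169 and 141 of Cxcr6, and that led by Nsg2 and Klra6 had 294, 291 and 291 CPM of Cxcr3 and 167, 227 and 215 of Cxcr6.

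**Figure D4:**
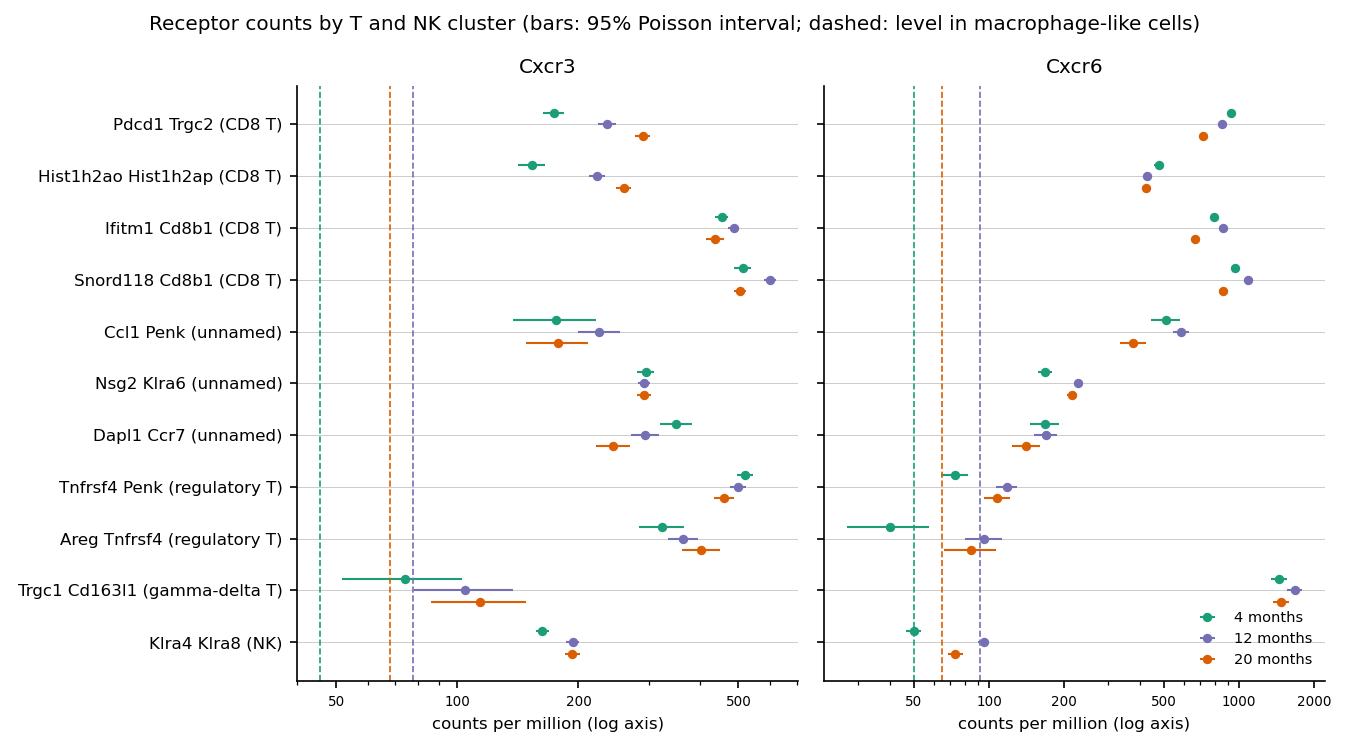
Levels of Cxcr3 and Cxcr6 (CPM, log axis) in 11 T-like, unnamed and NK-like clusters, each called by leading genes, with 1 point per library, bars for the 95% Poisson interval and dashed lines for the level in macrophage-like cells of each library. Gamma-delta T-like cells lie highest for Cxcr6, at 1444 to 1675 CPM, and lowest for Cxcr3, where they lie above the dashed line of the same library.

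Both receptors occurred in the same CD8 T-like cells slightly more often than their separate shares would give. Counts of both were found in 34.3, 39.8 and 34.9% of thinned cells at 4, 12 and 20 months, against 34.0, 38.4 and 33.6% if they were independent. Cxcr6 was found in 73.4, 75.4 and 68.6% of cells with a Cxcr3 count and in 72.2, 69.8 and 63.4% of those without one. The class includes clusters of different levels. CD8 T-like cells supplied 39.5, 43.4 and 38.6% of all Cxcr3 counts and 72.7, 64.2 and 60.7% of all Cxcr6 counts. NK-like cells gave 18.9, 13.8 and 11.1% of Cxcr3 and regulatory T-like cells 13.3, 9.13 and 7.20%. An unnamed cluster led by Gzmm and Trdc, with 21, 40 and 808 cells, gave 0.232, 0.422 and 11.1% of Cxcr3 and 0.174, 0.248 and 5.89% of Cxcr6, so nearly all of its share was in the 20-month library.

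The comparison of ages asked whether cells of a class held more or less RNA of a member in older mice. A difference of at least 1.5-fold, or 0.585 on the log2 scale, was counted, among genes with at least 10 CPM in either library. Of the 4 ligands, 0 passed 1.5-fold in macrophage-like cells, where 1.97% of all genes were higher and 1.74% lower by that much at 20 months, and 3.22% and 1.24% at 12 months. Of both receptors, 0 passed in CD8 T-like cells, where 3.16% of genes were higher and 1.51% lower at 20 months, and 2.87% and 1.2% at 12 months. The median log2 ratio of all genes between 20 and 4 months was −0.027 in macrophage-like and −0.049 in CD8 T-like cells.

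Cxcl9 and Cxcl11 were lower in macrophage-like cells of the older libraries by amounts beyond counting error. The log2 ratio to 4 months was −0.22 (−0.27 to −0.16) for Cxcl9 at 12 months and −0.47 (−0.52 to −0.41) at 20 months. For Cxcl11 it was −0.55 (−0.65 to −0.45) and −0.57 (−0.65 to −0.48). These intervals leave out the spread between cells. Thinned shares with a Cxcl9 count, 17.7% (16.0 to 19.5), 19.9% (18.1 to 21.9) and 16.9% (15.6 to 18.4), did not follow the levels. Those with a Cxcl11 count, 16.6% (14.9 to 18.3), 11.8% (10.3 to 13.4) and 12.1% (10.9 to 13.3), were lower in each older library. Unthinned, the Cxcl11 shares were 35.8, 33.3 and 26.25%. Cxcl10 gave −0.16 (−0.20 to −0.13) at 12 months and −0.0084 (−0.039 to 0.022) at 20 months, and Cxcl16 gave −0.12 (−0.15 to −0.083) and −0.12 (−0.15 to −0.090). The clusters that made up the class differed between libraries: that led by Cfb held 771, 478 and 622 cells, that led by H2-Ab1 616, 617 and 992, and that led by Pf4 465, 624 and 1179. The H2-Ab1 and Pf4 clusters were both below the Cfb cluster in Cxcl9, Cxcl10 and Cxcl11 in every library. With the same mix of clusters at each age, a comparison added after the data were seen, the 20-month ratio became −0.13 for Cxcl9, 0.34 for Cxcl10 and −0.029 for Cxcl11. The 12-month ratio of Cxcl9 turned to 0.027 with that mix and to 0.036 with each library clustered on its own, which also took Cxcl11 at 20 months past 1.5-fold, to −0.82.

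Within clusters the ratios differed in direction. In the Cfb cluster Cxcl10 was 1482, 1684 and 2093 CPM at 4, 12 and 20 months, with log2 ratios of 0.18 (0.14 to 0.23) and 0.50 (0.46 to 0.54), higher in each older library and just under 1.5-fold, which 4.39% and 3.57% of the cluster's genes reached on that side. Subtracting the background brought the 20-month value to 0.68, past it. Cxcl11 in that cluster gave −0.21 (−0.33 to −0.085) and 0.15 (0.037 to 0.25), and Cxcl9 gave −0.25 (−0.34 to −0.17) and −0.28 (−0.36 to −0.21). In the H2-Ab1 cluster Cxcl9 was higher in both older libraries, at 0.42 (0.31 to 0.53) and 0.28 (0.18 to 0.38). It was lower at 20 months in the Pf4 cluster, at −0.30 (−0.42 to −0.18). The lower Cxcl9 of the whole class was therefore not shared by all of its clusters. In the unnamed Il1b cluster the 20-month ratio was −0.17 (−0.25 to −0.090) for Cxcl9, 0.019 (−0.025 to 0.063) for Cxcl10, −0.42 (−0.54 to −0.30) for Cxcl11 and −0.21 (−0.26 to −0.16) for Cxcl16. None of these passed 1.5-fold, while 3.73% of the cluster's genes were higher and 2.19% lower by as much.

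Monocyte-like cells had less of all 3 Cxcr3 ligands in the older libraries. Log2 ratios were −0.31 (−0.39 to −0.23) and −0.41 (−0.49 to −0.33) for Cxcl9, −0.30 (−0.32 to −0.28) and −0.38 (−0.40 to −0.36) for Cxcl10, and −0.17 (−0.28 to −0.071) and −0.55 (−0.66 to −0.44) for Cxcl11, at 12 and 20 months. Cxcl16 was slightly higher, at 0.078 (0.00078 to 0.15) and 0.11 (0.033 to 0.18). None passed 1.5-fold, as against 2.68% of genes higher and 1.45% lower at 20 months, and 4.01% and 1.28% at 12 months. Some ratios within its clusters did. Cxcl9 in the F13a1 cluster was 114, 74.3 and 67.2 CPM, with −0.61 (−0.79 to −0.43) and −0.76 (−0.94 to −0.58), where 2.41% and 2.39% of genes were lower by 1.5-fold. In the AA467197 cluster Cxcl9, at −0.72 (−0.83 to −0.62), and Cxcl11, at −0.71 (−0.88 to −0.55), passed at 20 months, as did 3.26% of its genes in that direction. Cxcl11 in the Thbs1 cluster gave −0.61 (−0.83 to −0.40), where the share was 5.28%. Cxcl9 in the Thbs1 cluster did not follow, at 0.23 (0.068 to 0.39).

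Dendritic cell classes held few cells. Type 1 dendritic cell-like cells numbered 90, 92 and 155. Their Cxcl10 was 356 (319 to 397), 199 (173 to 227) and 174 (154 to 197) CPM, with log2 ratios of −0.84 (−1.10 to −0.59) and −1.03 (−1.27 to −0.79), and the thinned share with a count was 45.6, 31.5 and 25.8%, against 37.1, 31.3 and 32.1% of CD8 T-like cells. Both older levels lay below the 338, 291 and 320.2 CPM of CD8 T-like cells and above the 169, 177 and 133 CPM of mature dendritic cell-like cells in the same libraries. How much of them is free RNA was not tested. Cxcl11 gave −1.10 (−2.20 to −0.057) and −1.26 (−2.27 to −0.27) from 23, 13 and 16 counts, but thinning cells to 2000 counts turned its 12-month value to 0.38. Cxcl16 was higher there, at 0.54 (0.14 to 0.95) and 0.71 (0.34 to 1.09), while Cxcl9 gave 0.13 (−0.095 to 0.35) and −0.24 (−0.46 to −0.024). Cxcl10 and Cxcl11 passed 1.5-fold on the lower side at 12 and 20 months and Cxcl16 on the higher side at 20 months, while 11.8% of all genes were higher and 8.96% lower by that much at 20 months, and 10.3% lower at 12 months. Type 2 dendritic cell-like cells had less Cxcl10 in each older library, at −0.26 (−0.32 to −0.19) and −0.68 (−0.75 to −0.61), the latter past 1.5-fold as for 4.17% of genes. Their Cxcl9 gave −0.71 (−0.85 to −0.56) at 12 months, where 2.95% of genes were lower by 1.5-fold, and 0.065 at 12 months when no doublets were removed and cells were clustered anew. Mature dendritic cell-like cells had slightly less Cxcl16 in each older library, at −0.14 (−0.24 to −0.042) and −0.20 (−0.31 to −0.081), neither past 1.5-fold. Their Cxcl9 gave 0.64 (0.18 to 1.12) at 12 months, where 13.1% of genes were higher by 1.5-fold, but −1.07 when no doublets were removed.

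**Figure D5:**
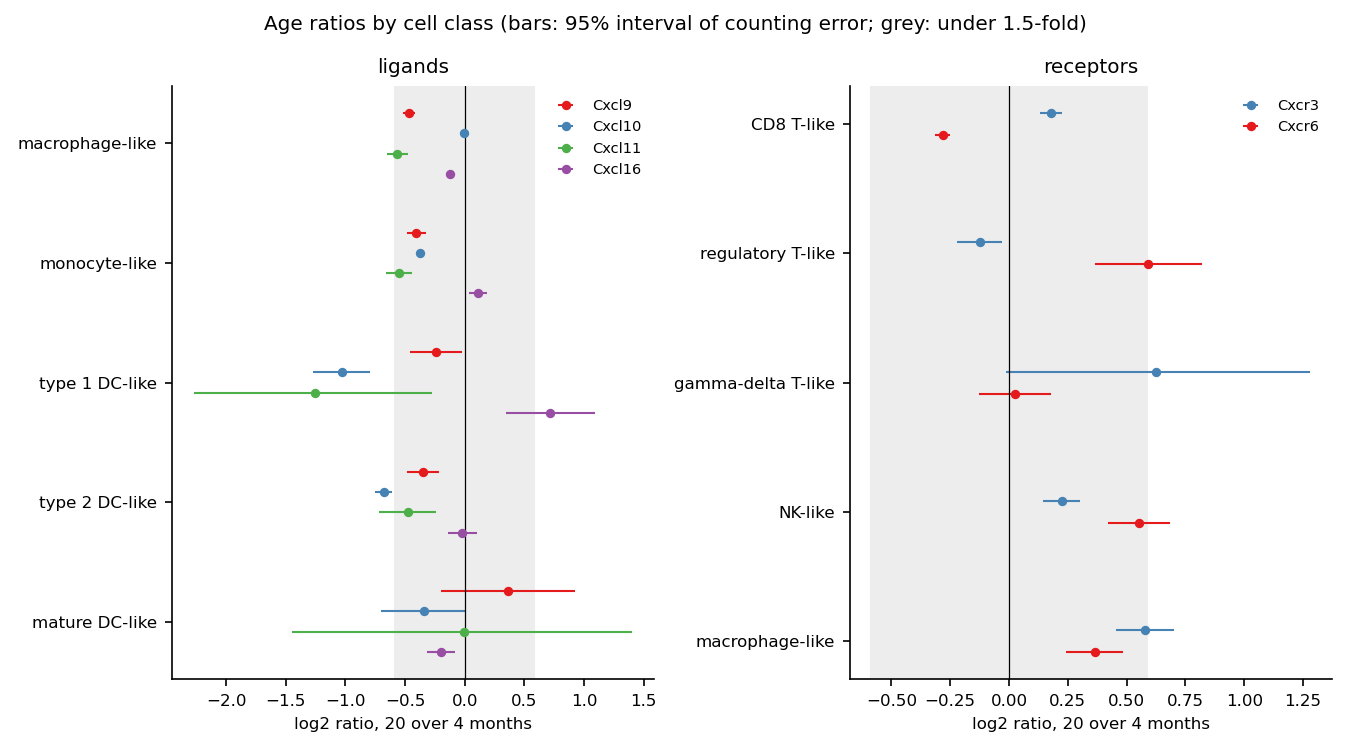
Log2 ratios between the 20-month and the 4-month library for the ligands in 5 classes and the receptors in 5 classes, with bars for the 95% interval of counting error and a grey band for ratios under 1.5-fold. Cxcl10 in type 1 dendritic cell-like cells (−1.03) and in type 2 dendritic cell-like cells (−0.68) lies outside the band on the lower side, and the ligands in macrophage-like and monocyte-like cells lie inside it.

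Receptor levels by age differed between T cell clusters. CD8 T-like cells as a whole had log2 ratios of 0.26 (0.22 to 0.31) and 0.18 (0.13 to 0.23) for Cxcr3, and −0.028 (−0.058 to 0.0010) and −0.28 (−0.31 to −0.25) for Cxcr6, at 12 and 20 months. In the Pdcd1 cluster Cxcr3 was 173 (163 to 184), 235 (223 to 247) and 289 (276 to 302) CPM, with ratios of 0.44 (0.32 to 0.55) and 0.74 (0.63 to 0.85). The dividing cluster had 153 (142 to 166), 222 (212 to 232) and 259 (247 to 271) CPM, with 0.53 (0.41 to 0.67) and 0.76 (0.63 to 0.89). Both passed 1.5-fold at 20 months, where 4.9% and 5.32% of genes in these clusters were higher by as much. All 6 alternatives without new clustering kept them past it, at 0.67 to 0.79 in the Pdcd1 cluster and 0.71 to 0.83 in the dividing one. The level of macrophage-like cells, which one of these subtracted, was itself higher in the older libraries, with ratios of 0.77 (0.64 to 0.90) and 0.58 (0.46 to 0.70). Thinned shares with a Cxcr3 count were 27.8, 37.3 and 43.9% in the Pdcd1 cluster and 26.3, 37.7 and 39.2% in the dividing one, against 8.69, 15.4 and 12.6% of macrophage-like cells. Unthinned, they were 59.6, 75.2 and 76.5% in the Pdcd1 cluster and 73.7, 83.0 and 80.6% in the dividing one, at median depths of 5762 to 7231 and 8616 to 11826 counts.

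The clusters with most Cxcr3 showed no such difference. The Ifitm1 cluster gave 0.10 (0.030 to 0.17) and −0.053 (−0.14 to 0.038), and the Snord118 cluster 0.23 (0.14 to 0.31) and −0.020 (−0.11 to 0.067). In the unnamed Dapl1 and Ccr7 cluster Cxcr3 was lower in the older libraries, at −0.26 (−0.43 to −0.078) and −0.52 (−0.72 to −0.33). The make-up of the class also differed. The Ifitm1 cluster held 1254, 1399 and 591 cells, the Pdcd1 cluster 832, 718 and 998, the dividing cluster 334, 676 and 722 and the Snord118 cluster 664, 1008 and 1015. Cxcr6 was lower at 20 months in all 4, with log2 ratios of −0.37 (−0.43 to −0.31) in the Pdcd1, −0.25 (−0.32 to −0.18) in the Ifitm1, −0.17 (−0.25 to −0.090) in the dividing and −0.16 (−0.22 to −0.094) in the Snord118 cluster, none of them past 1.5-fold. In the same order 4.47%, 4.32%, 3.75% and 4.75% of genes were lower by as much.

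The same cells were then divided by a count of Pdcd1, the gene of PD-1, a division chosen after the clusters had been seen. CD8 T-like cells with a Pdcd1 count numbered 1838, 2163 and 2145 and had 247, 308 and 316 CPM of Cxcr3, with log2 ratios of 0.32 (0.26 to 0.38) and 0.36 (0.29 to 0.42). Those without one numbered 1250, 1652 and 1187 and had 454, 505 and 442 CPM, with 0.16 (0.090 to 0.22) and −0.039 (−0.11 to 0.034). Cxcr3 was lower in cells with a Pdcd1 count in each library. Cxcr6 was 812, 736 and 652 CPM with and 759, 859 and 659 CPM without a count, and lower at 20 than at 4 months in both. Whether a cell has a count depends on its depth as well as on its level of Pdcd1.

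Outside CD8 T-like cells, Cxcr3 in NK-like cells gave 0.24 (0.17 to 0.31) and 0.22 (0.15 to 0.30) and in regulatory T-like cells −0.078 (−0.16 to 0.0081) and −0.12 (−0.22 to −0.029). Macrophage-like cells, which set the background, also had a higher Cxcr3 level in both older libraries, with the ratios given above. No Cxcr3 change particular to NK-like cells is therefore read. Cxcr6 was higher in the older libraries in NK-like cells, at 0.96 (0.84 to 1.07) and 0.55 (0.42 to 0.68), and in regulatory T-like cells, at 0.72 (0.52 to 0.93) and 0.59 (0.37 to 0.82). These passed 1.5-fold at 12 months in both classes and at 20 months in regulatory T-like cells, where 2.66% (NK-like, 12 months), 4.68% and 5.95% (regulatory T-like, 12 and 20 months) of all genes were higher by as much. Macrophage-like cells gave 0.87 (0.75 to 0.99) and 0.36 (0.24 to 0.49), and monocyte-like cells 1.00 (0.86 to 1.14) and 0.55 (0.40 to 0.69). Macrophage-like and monocyte-like cells thus differed in the same direction, and no change particular to NK-like or regulatory T-like cells is read from these ratios. Gamma-delta T-like cells, the highest in Cxcr6, gave 0.21 (0.066 to 0.36) and 0.025 (−0.13 to 0.18).

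Genes that act on or with these axes were described from 6 lists. Of 20 genes of interferon-gamma signalling and its targets, 18 were at 10 CPM in macrophage-like cells and 0 of them passed 1.5-fold between 20 and 4 months, with a median log2 ratio of −0.17 against −0.027 over all genes. Monocyte-like cells also had 0 of 18, with a median of −0.21 against 0.040. In lymphocytes the cytokine gene Ifng itself was lower. It was at 402, 333 and 229.6 CPM in CD8 T-like cells, with a log2 ratio of −0.81 (−0.86 to −0.76) at 20 months, the only 1 of 17 list genes to pass there. In NK-like cells it was at 163, 152 and 89.5 CPM, with −0.87 (−0.97 to −0.77), the only 1 of 16. For NK-like cells 1.09% of all genes were lower and 2.6% higher by 1.5-fold. Of 16 type I interferon response genes, 0 passed between 20 and 4 months in macrophage-like, monocyte-like, CD8 T-like or NK-like cells, with medians of −0.25, −0.40, −0.22 and −0.34, against −0.027, 0.040, −0.049 and −0.050 over all genes. Between 12 and 4 months 2 genes of these lists passed, both on the lower side in monocyte-like cells, where 1.28% of all genes were lower by as much. They were Socs1, an inhibitor of interferon signalling (93.2, 59.7 and 70.4 CPM), and Cmpk2 (349.8, 232 and 259 CPM), named here after their values were seen.

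Genes that process or clear the ligands were followed as well. Of 7 genes of ligand processing and decoy binding, 3 were at 10 CPM in each of the 4 classes and 0 passed at 12 or 20 months. Dpp4 was highest in dendritic cells, at 221, 178 and 225 CPM in type 1, 221, 196 and 226 in type 2 and 174, 182 and 172 in mature dendritic cell-like cells, and was 61.5, 54.9 and 54.7 CPM in macrophage-like cells. Adam10 was 48.2, 44.9 and 48.4 CPM and Adam17 83.1, 90.8 and 95.9 CPM in macrophage-like cells.

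Other chemokine genes were read against the shares of all genes past 1.5-fold at 20 months, which were 1.97% higher and 1.74% lower in macrophage-like, 2.68% and 1.45% in monocyte-like, 3.16% and 1.51% in CD8 T-like and 2.6% and 1.09% in NK-like cells. Of 20 such genes, 10 were at 10 CPM in monocyte-like cells and 4 were lower at 20 months: Ccl7 (197, 115 and 93.6 CPM), Ccl2 (1370.5, 990.1 and 759.6 CPM), Ccl4 (808, 613 and 468 CPM) and Xcl1 (151, 144 and 99.7 CPM). Ccl2 and Ccl7 bind Ccr2, the receptor that brings monocytes out of bone marrow, and Xcl1 is a product of NK and CD8 T cells that was at 2980.3, 2771 and 2742 CPM in NK-like cells. In macrophage-like cells 11 were at 10 CPM. Ccl9 was higher (126, 172 and 208 CPM), and Cxcl2, which attracts neutrophils, and Xcl1 were lower (56.2, 62.5 and 29.0 CPM of Cxcl2 and 146, 144 and 93.7 CPM of Xcl1). Ccl2 was lower among 10 genes in CD8 T-like cells (65.0, 47.7 and 41.1 CPM). In NK-like cells Ccl2 and Ccl3 were lower among 10 (61.2, 47.0 and 35.5 CPM of Ccl2 and 205, 142 and 132 CPM of Ccl3). Ccl2 in lymphocytes was far under its monocyte-like level and had the same order of ages. How much of the lymphocyte level is free RNA was not tested. At 12 months Ccl7 alone was lower in monocyte-like cells, where 1.28% of all genes were lower by 1.5-fold. Ccl8 (29.5, 67.2 and 42.4 CPM) and Ccl17 (7.90, 13.5 and 5.58 CPM) were higher among 12 in macrophage-like cells, both named after their values were seen, where 3.22% were higher. In CD8 T-like cells 0 of 10 passed, while 2.87% of all genes were higher and 1.2% lower. In NK-like cells 0 of 10 passed, while 2.66% of all genes were higher.

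The same shares of all genes at 20 months apply to the receptors and state genes. They were 3.16% higher and 1.51% lower in CD8 T-like and 2.6% and 1.09% in NK-like cells. In macrophage-like cells they were 1.97% and 1.74% and in monocyte-like cells 2.68% and 1.45%. At 12 months the higher shares were 3.22% in macrophage-like, 4.01% in monocyte-like, 2.87% in CD8 T-like and 2.66% in NK-like cells. Of 16 other chemokine and trafficking receptors, 9 were at 10 CPM in CD8 T-like cells and Cxcr4, the receptor of Cxcl12, was higher at 20 months (30.1, 47.1 and 47.1 CPM). In NK-like cells Ccr7 was higher among 8 (15.9, 27.4 and 24.4 CPM). In macrophage-like and monocyte-like cells 0 of 7 passed at 20 months. Of 20 genes of T and NK cell state and residency, 18 were at 10 CPM in CD8 T-like cells and Eomes, a transcription factor of effector, memory and exhausted cells, was higher (28.4, 41.7 and 53.7 CPM). In NK-like cells Il7r (9.86, 14.6 and 23.4 CPM) and Gzmk (31.9, 42.8 and 50.4 CPM) were higher and Gzmb, a granzyme of killer cells, was lower (5002, 4169 and 3334 CPM) among 18. Gzmk and Lef1 also passed on the higher side in macrophage-like and monocyte-like cells, and Il7r in macrophage-like cells, at 21.3, 38.9 and 43.8 CPM of Gzmk, 5.67, 10.1 and 10.6 of Lef1 and 11.1, 14.1 and 19.9 of Il7r in macrophage-like cells. The NK-like levels of Il7r and Gzmk were near these, so no difference particular to NK-like cells is read from them. How much of the macrophage-like level of these genes is free RNA was not tested. At 12 months, named after their values were seen, Ccr7 and S1pr4 were higher in macrophage-like and monocyte-like cells, Ccr7 and Cxcr4 in CD8 T-like and Ccr7 in NK-like cells. Of the state genes Gzmk, Lef1, Klf2 and Pdcd1 were then higher among 16 in macrophage-like and monocyte-like cells, and 0 of 18 passed in CD8 T-like and in NK-like cells. Ccr7 was 22.8, 38.4 and 30.8 CPM in CD8 T-like and 15.3, 25.2 and 18.0 CPM in macrophage-like cells. The NK-like Ccr7 level was near that of macrophage-like cells, and no difference particular to NK-like cells is read from it.

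Genes with a pattern like that of a member were found by the correlation of log2(CPM + 1) over 36 points, 12 classes in each of 3 libraries, among 11935 genes. The points share libraries and no p is given. Cxcl9 was most like Ccdc86, Ifi205, Gatm, Acvrl1 and Aif1 (r from 0.884 to 0.914). Cxcl10 was most like Ifit3, Oas1a, Cmpk2, Ddx58 and Lgals8 (r from 0.864 to 0.897), of which the first 4 are known interferon-induced genes. For Cxcl11 these were Ccr1, Fcgr1, Myd88, Slfn4 and Clec5a (r from 0.845 to 0.894). For Cxcl16 they were Pdlim4, Tctex1d2, Iscu, Zmynd15 and Cd40 (r from 0.865 to 0.897), where Zmynd15 is the gene that shares exon bases with it. Cxcr3 was most like Cd2, Gm28053, Cd28, Grap and Lck (r from 0.905 to 0.929), among them the T cell genes Cd2, Cd28 and Lck. Cxcr6 was most like Trgc2, Actn2, Pdcd1, Aqp3 and Cd226 (r from 0.860 to 0.947). Trgc2 is a constant gene of the gamma chain and Pdcd1 the gene of PD-1, and both also led the CD8 T-like cluster with low Cxcr3 and high Cxcr6.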

How the data were processed

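The authors deposited 1 matrix of counts for each library, with genes against cells, as whole numbers that were not normalized. STAR 2.7.10a and the build GRCm38 are named, per the submitters' processing notes. The counting program, its annotation and use of strand, the calling of cells and whether a count is a molecule or a read are not given in the sources used here. Of the 55401 listed gene identifiers, 54349 are identical to those of GENCODE M21.

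A cell needed 500 counts or more, of which no more than 15% could come from mitochondrial genes, which left out 2 cells, and the 6% of cells with the highest Scrublet score in each library were removed as likely doublets (863, 879 and 881). The libraries shared few barcodes, with 9 found in 2 libraries and 0 in 3. Counts were scaled to 10000 per cell and log-transformed, 2000 variable genes were reduced to 30 principal components, and a graph of 15 neighbours gave clusters by the Leiden method (scanpy 1.11.5, resolution 1). The 6 members and 32 genes specific to a library were left out. Myeloid and T cells were clustered again. A cluster took the class of its highest marker score if this was at least 0.4, with 3 markers seen in at least 10% of its cells, and stayed unnamed where its 10 leading genes held more markers of another class. This scoring was set after the clusters had been seen, and the members, marker lists and gene lists were chosen with earlier results of these data known.

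Counts were summed per library and class. Intervals at 95% are exact (scipy 1.17.1), Poisson for levels, conditional binomial for ratios and Clopper-Pearson for shares. Shares of cells and joint shares were taken after each cell was thinned to 2000 counts. With 1 library per age no test was made. Named beside the members are the list genes with at least 10 CPM and a ratio of at least 1.5 between 20 and 4 months, at most 4 per list and class, and the 5 genes most like each member, among those with at least 20 CPM in a class and library. The summing and interval steps were tested on simulated data. Alternatives were other resolutions, each library alone, no doublet removal, a limit of 30000 counts, per-cell means, leaving out the highest cells, background subtraction, other totals and thinning.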

Additional observations from a re-analysis of the deposited data

How the results depend on the processing

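No paired analysis was possible because there is 1 library per age. The 12 log2 ratios of the members to 4 months, of the ligands in macrophage-like and of the receptors in CD8 T-like cells, were recomputed under 12 alternatives each, of which naming by the highest score and an equal mix of clusters were added after the data were seen. Of these 144 values, 89 lay within the counting interval of the value reported and 55 outside it. Cxcl11 passed 1.5-fold in 1 alternative at 12 months and in 3 at 20 months, and no other member did. The cause of the differences was not tested. Clustering at a lower resolution gave Cxcl9 −0.13 at 12 months and −0.36 at 20 months, Cxcl10 −0.15 at 20 months and Cxcl11 −0.43 at 12 months. Clustering at 1.5 times the resolution gave Cxcl9 −0.40 at 12 months, Cxcl10 −0.28 at 12 months and −0.12 at 20 months and Cxcr3 0.21 at 12 months and 0.073 at 20 months. Each library clustered on its own gave Cxcl9 0.036 at 12 months and −0.30 at 20 months, Cxcl10 −0.068 at 12 months and −0.33 at 20 months, Cxcl11 −0.24 at 12 months and −0.82 at 20 months, Cxcl16 0.019 at 12 months and −0.017 at 20 months, Cxcr3 0.47 at 12 months and Cxcr6 −0.32 at 20 months. Naming every cluster by its highest marker score gave Cxcl9 −0.41 at 20 months, Cxcl16 −0.15 at 20 months, Cxcr3 0.15 at 12 months and Cxcr6 −0.090 at 12 months and −0.39 at 20 months. The same mix of clusters in every library gave Cxcl9 0.027 at 12 months and −0.13 at 20 months, Cxcl10 0.086 at 12 months and 0.34 at 20 months, Cxcl11 −0.19 at 12 months and −0.029 at 20 months, Cxcl16 −0.15 at 20 months, Cxcr3 0.23 at 20 months and Cxcr6 0.022 at 12 months and −0.25 at 20 months. With no doublets removed the values were Cxcl10 −0.047 at 20 months and Cxcr6 −0.35 at 20 months. Thinning each cell to 2000 counts gave Cxcl9 −0.40 at 20 months, Cxcr3 0.078 at 20 months and Cxcr6 0.036 at 12 months and −0.24 at 20 months. The mean of each cell's CPM gave Cxcl9 −0.13 at 12 months and −0.41 at 20 months, Cxcr3 0.066 at 20 months and Cxcr6 0.040 at 12 months. Leaving out the 10 cells with most counts gave Cxcl9 −0.12 at 12 months and −0.38 at 20 months. Subtracting the background level gave Cxcl10 −0.044 at 12 months and 0.13 at 20 months, Cxcr3 0.16 at 12 months and 0.10 at 20 months and Cxcr6 −0.11 at 12 months and −0.34 at 20 months. Totals without ribosomal protein and mitochondrial genes gave Cxcl10 0.023 at 20 months, Cxcl16 −0.090 at 20 months and Cxcr6 −0.24 at 20 months.

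Thinned to 1000 counts, the shares of cells with a count at 4, 12 and 20 months were 13.3, 12.9 and 11.9% for Cxcl9, 37.0, 34.1 and 33.9% for Cxcl10, 9.44, 6.76 and 6.46% for Cxcl11, 52.1, 52.1 and 50.4% for Cxcl16, 28.8, 32.9 and 30.5% for Cxcr3 and 51.7, 53.5 and 46.7% for Cxcr6, the ligands in macrophage-like and the receptors in CD8 T-like cells. The share of all genes past 1.5-fold rested on the minimum level. With 5 CPM it was 7.26% and 6.03% in macrophage-like cells at 12 and 20 months and 6.18% in CD8 T-like cells at 12 months. With no minimum it was 45.0%, 46.9%, 42.6% and 44.9%, since genes of few counts then enter. Of 949 further values for other classes and clusters, 795 lay within the counting interval and 3 called ones took the other sign: Cxcl9 at 12 months with no doublets removed, at 0.065 in type 2 and −1.07 in mature dendritic cell-like cells, and Cxcl11 at 12 months in type 1 dendritic cell-like cells thinned to 2000 counts, at 0.38. With no replicate, an interval covers counting error and not the spread between mice. That of a level or a ratio leaves out the spread between cells too. Small classes such as type 1 dendritic cell-like and gamma-delta T-like cells rest on few counts.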

Other observations

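The unnamed myeloid cluster led by Il1b, Cxcl2, Atf3, Cd14 and Fos held 879, 1102 and 778 cells at 4, 12 and 20 months and carried all 4 ligands. Its Cxcl9 was 353 (339.6 to 366), 323 (313 to 334) and 313 (301 to 326) CPM, its Cxcl10 1090.2, 922 and 1105 CPM and its Cxcl11 179, 125 and 133 CPM.

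Unnamed T cell clusters with NK or gamma-delta genes among their leaders carried both receptors. That led by Gzmm and Trdc had 327, 382 and 454 CPM of Cxcr3 and 336, 314 and 282 CPM of Cxcr6, with 21, 40 and 808 cells, so that only the 20-month level rests on many cells. That led by Eya4, Dock1 and Klrb1c had 281, 346 and 309.8 CPM of Cxcr3 and 325, 384 and 305 CPM of Cxcr6 from 105, 127 and 64 cells. The cluster led by Ccl1, Penk and Ifng had 509, 586 and 377 CPM of Cxcr6. NK-like cells led by Gzmd and Gzmf, granzyme genes of cytokine-activated killer cells, had 108, 127 and 109.9 CPM of Cxcr3 from 62, 96 and 76 cells, against 162, 193 and 193 CPM in those led by Klra4 and Klra8.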
